A study of Rattus norvegicus with 42 samples.

Results

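Kidney mesenchyme cultured with leukemia inhibitory factor (LIF) was compared with the same tissue cultured with neutrophil gelatinase-associated lipocalin (NGAL) on days 3, 4, 5 and 7. The 16 arrays, 8 for each protein and 2 for each day, were chosen by their labels out of the 42 arrays of the series. Metanephric mesenchyme was dissected from rat embryos on embryonic day 13.5, freed of the ureteric bud with trypsin and DNase, and grown on collagen-coated filters. Both groups received the same medium, DMEM/F12 with dexamethasone, insulin, transferrin, selenium, prostaglandin, T3 and recombinant FGF and TGF, so the inducer was the only labelled difference; the TGF form, the rat strain, the origin and dose of each inducer, and the number of explants in each sample are not stated in the sources at hand. The labels call the duplicates of each condition biological replicates. The other 26 arrays hold fresh mesenchyme, uninduced cultures of days 1 and 2, LIF and NGAL cultures of days 1 and 2, and cultures with another inducer, ANX.

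Metanephric mesenchyme is the tissue from which nephrons form: under inducing signals its nephron progenitors aggregate, turn into an epithelium and are patterned into glomerulus and tubule segments, while the stromal lineage gives interstitial cells. LIF is an interleukin-6 family cytokine that binds LIFR together with the shared receptor chain gp130 (Il6st) and activates STAT3, whose best known feedback target is Socs3. NGAL, encoded by Lcn2, is a lipocalin that binds iron-carrying siderophores and can deliver iron to cells; megalin (Lrp2) and Slc22a17 have been described as its receptors. The comparison asks how mesenchyme given either epithelial inducer differed while it converted.

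Values are log2 of the normalised intensity of 1 probe set per gene, and a difference is LIF minus NGAL on that scale, taken on each day and averaged over the 4 days. A gene was measured if its highest group mean passed log2 5.79 (intensity 55.2, the 40th percentile of all values), which kept 11383 of 14210 genes on the array with a single-gene probe set. A gene was called if the adjusted p of the limma fit across all 42 arrays (Benjamini-Hochberg) was under 0.05. Array medians lay between 83.3 and 88.4. A spiked-in control's log2 signal at its 3' end relative to its 5' end averaged 1.48 ± 0.48 in LIF and 1.26 ± 0.40 in NGAL arrays (SD, n = 8 each). The log2 signal of 5S ribosomal RNA itself averaged 8.25 ± 0.70 and 7.67 ± 0.53. Both measures overlapped between the groups. With the spike's 3'/5' signal as a covariate, 5169 genes were called over days 3 to 7 against 4444 without it; the part of 5S RNA in the results was not tested.

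Before any gene is considered, 4 arrays stood apart. The closest array to LIF day 4 replicate 2 was NGAL day 5 replicate 1 (Pearson correlation over measured genes 0.986, against 0.964 with its own replicate), and the reverse held too. The closest array to LIF day 7 replicate 2 was NGAL day 7 replicate 2 (0.983, against 0.936 with its own replicate), and again the reverse held. The other 12 arrays were each closest to an array of their own inducer. Of the 4, LIF day 4 replicate 2 (2.16), LIF day 7 replicate 2 (2.30) and NGAL day 7 replicate 2 (1.97) also had the highest 3'/5' signal of the spike among the 16 arrays, where the next was 1.48, and the highest of Gapdh; NGAL day 5 replicate 1 was at 1.47. The labels were kept, all 16 arrays stayed in the main comparison, and the main results are given with and without these 4 arrays.

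**Figure D1:**
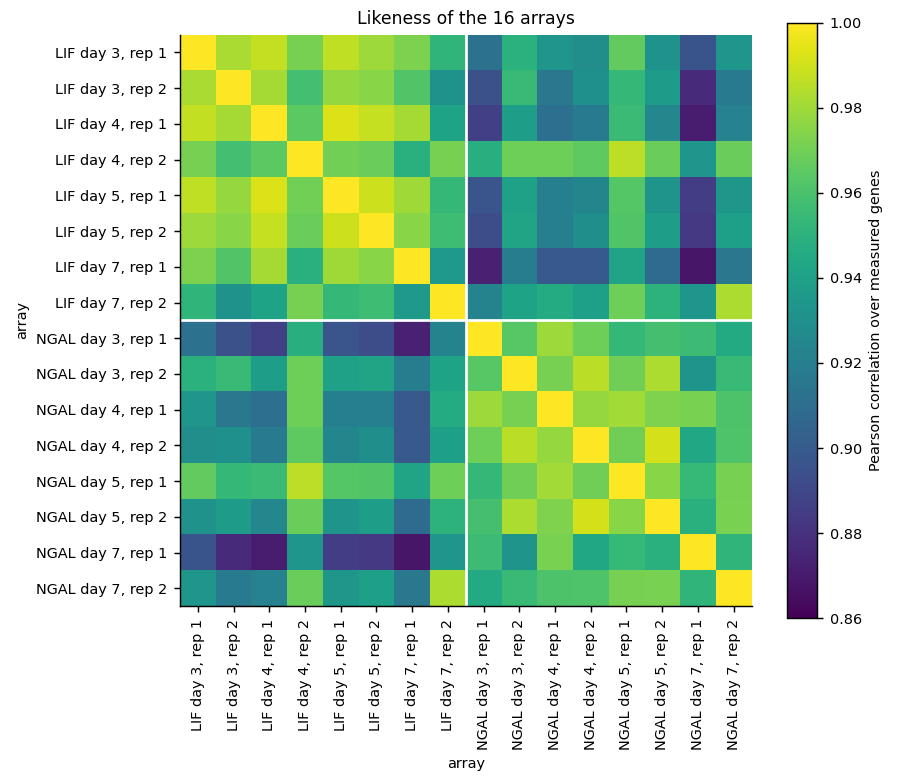
Pearson correlation over the measured genes between each pair of the 16 arrays (both axes: arrays in order of inducer, day and replicate; white lines separate LIF from NGAL; colour: correlation). The LIF block and the NGAL block stand out, and LIF day 4 replicate 2 and LIF day 7 replicate 2 are brighter against NGAL arrays than the other LIF arrays are, reaching 0.986 and 0.983.

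The inducers gave different profiles. Averaged over days 3 to 7, 2316 genes were higher under LIF and 2128 lower (20.3% and 18.7% of measured genes; 39% called in all), and 4222 of these 4444 had the same sign on all 4 days. Most differences were small: the median called gene was 0.33 higher or -0.53 lower, and 150 genes were at least 2-fold higher against 466 at least 2-fold lower. Among called genes with an 8-fold difference, 1 was higher under LIF and 27 were lower. All 8 LIF arrays lay above all 8 NGAL arrays for 173 genes (1.52%) and below them for 324 (2.85%), so 4.37% did not overlap. Without the 4 arrays that stood apart, 2547 genes were higher (22.4%) and 2358 lower (20.7%). Over all measured genes the median difference was 0.04. With 2 arrays for each inducer, single days gave fewer calls: 483 higher (4.24%) and 599 lower (5.26%) on day 3, 9.51% in all. On day 4 there were 312 (2.74%) and 304 (2.67%), 5.41% in all, and on day 5, 72 (0.633%) and 158 (1.39%), 2.02% in all. On day 7 there were 123 (1.08%) and 251 (2.21%), 3.29% in all, and 59 genes were called on every day. These counts for single days depended on the arrays that stood apart, without which 1601 genes were called on day 3, 1431 on day 4, 658 on day 5 and 2185 on day 7. Leaving them out left a single LIF array on days 4 and 7 and a single NGAL array on days 5 and 7, assumed to vary like the other groups, and since they were left out for their likeness to the other inducer, larger differences without them follow in part from that choice. After each array was centred on its median, the day 4 calls split into 525 higher and 249 lower. Most genes named below were picked among called genes, and those with the largest differences also for the same sign on all 4 days. The counts of named genes that follow result in part from that choice and do not describe measured genes in general. Of 169 genes named below with their difference, 157 were called; 151 of them had the same sign on all 4 days, and 151 stayed called in the same direction without the 4 arrays.

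The genes that stood highest under LIF were of mixed function. Draxin, a secreted Wnt antagonist and axon guidance protein, ran from 7.79 to 9.87 (median 9.06) in the LIF arrays and from 4.96 to 6.74 (median 5.55) in the NGAL arrays. Every LIF array lay above every NGAL array, and the difference of 3.27 (SE 0.34) was 9.62-fold (adjusted p = 6.09e-07, limma). In 7 of the NGAL arrays it was below the signal threshold, and with levels floored there the difference was 3.08. Rgs4, a regulator of G-protein signalling, was at 8.39 to 10.81 (median 9.29) under LIF and 6.50 to 7.70 (median 6.66) under NGAL, again without overlap, with a difference of 2.65 (SE 0.35). Hpd, an enzyme of tyrosine breakdown, was at 6.55 to 8.66 (median 8.14) against 5.04 to 6.30 (median 5.20); it did not overlap either and differed by 2.37 (SE 0.27). Mt2A, a metallothionein, ran from 10.13 to 12.84 (median 11.49) under LIF and from 8.37 to 10.29 (median 9.38) under NGAL, where its highest array passed the lowest LIF array, and differed by 2.09 (SE 0.21). The remaining genes of the 14 with the largest rise that fall outside the gene groups below were Fbxo2, an F-box protein that binds glycoproteins (2.29), Lurap1l (2.06), Cck, the peptide hormone cholecystokinin (1.94), Ada, adenosine deaminase (1.93), Dmrta1, a DM-domain transcription factor (1.93), Pctp, a phosphatidylcholine transfer protein (1.86), and Scn4b, a sodium channel subunit (1.86). In all 7 of these the LIF and NGAL ranges overlapped.

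The genes that stood lowest under LIF belonged mainly to muscle and matrix, described in their groups below. Outside them, Dkk2, a secreted Wnt antagonist, ran from 3.72 to 6.37 (median 5.15) under LIF and from 7.86 to 9.12 (median 8.77) under NGAL, without overlap, and differed by -3.47 (SE 0.36). As 6 of the LIF arrays lay below the signal threshold, its size is uncertain, and with levels floored there the difference was -2.83. Ldb2, a LIM-domain binding cofactor, was at 4.36 to 7.45 (median 4.91) against 7.76 to 9.57 (median 8.58), a difference of -3.34, and Ghr, the growth hormone receptor, at 4.16 to 5.55 (median 4.80) against 6.40 to 9.14 (median 8.5), a difference of -3.28; neither overlapped. Adh1c, an alcohol dehydrogenase, differed by -3.38 without overlap, while Gucy1b1, a subunit of soluble guanylate cyclase, differed by -3.48 with LIF day 4 replicate 2 at 8.87, above the lowest NGAL array. Dlk1, a Notch-like transmembrane protein singled out after its values were seen, was at 6.39 to 8.82 (median 7.47) against 9.83 to 11.83 (median 10.47), a difference of -3.15 without overlap.

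**Figure D2:**
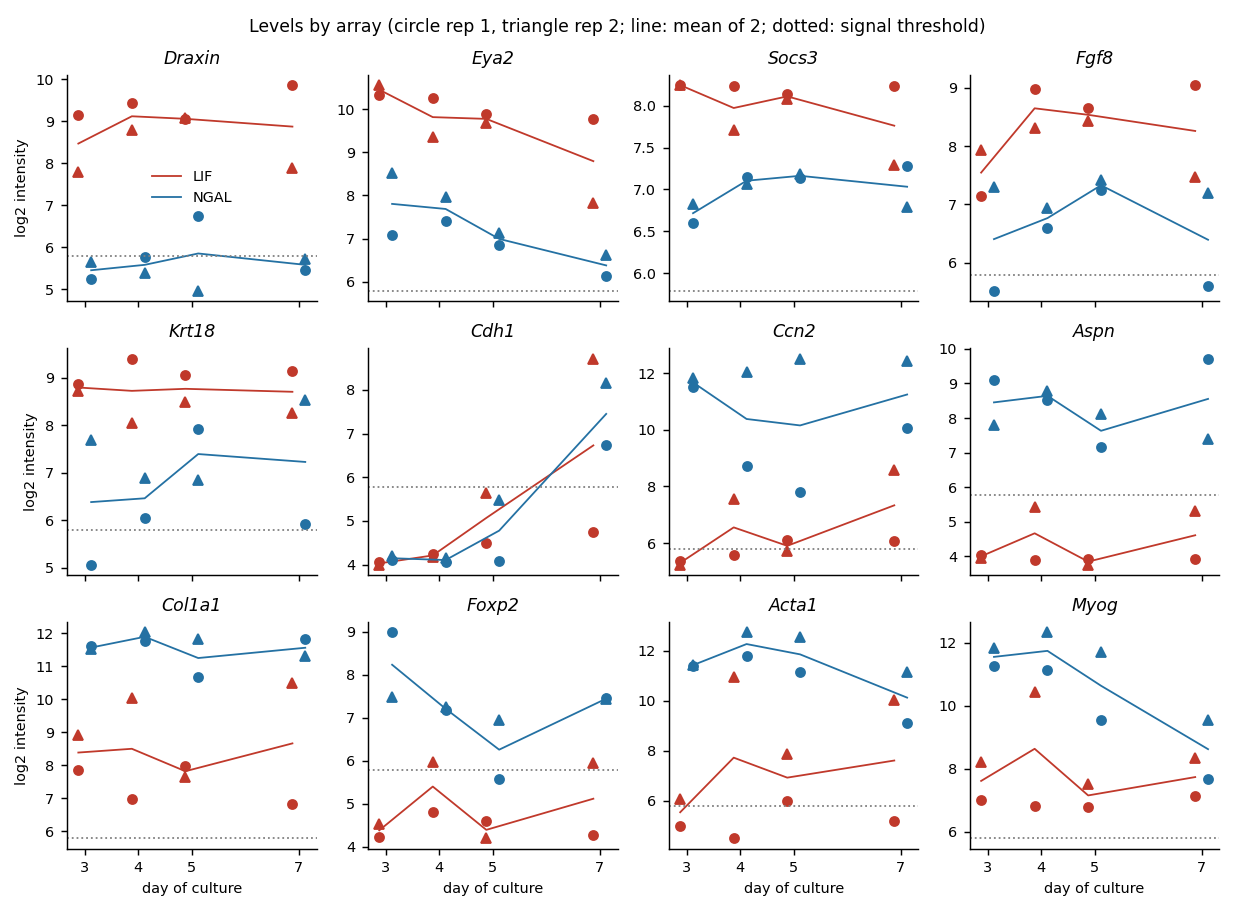
Level of 12 genes (y axis: log2 intensity) by day of culture (x axis) under LIF (red) and NGAL (blue); each point is 1 array, lines join the mean of 2, and the dotted line is the signal threshold of 5.79. Draxin and Aspn separate on every day, Acta1 and Myog are high in LIF day 4 replicate 2 (10.95 and 10.45), and Cdh1 is highest in day 7 replicate 2 of both groups (8.72 and 8.15).

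Part of the LIF signalling pathway stood higher under LIF than under NGAL. On days 3 to 7 the response list counted below averaged 8.19 to 8.52 under LIF and 7.94 to 8.52 under NGAL. Under ANX, the other inducer, it averaged 8.09 to 8.68, so its level was not particular to LIF. Its median difference between LIF and NGAL was 0.33, 0.19, -0.002 and 0.14 on days 3, 4, 5 and 7, and 0.40 on days 1 and 2. The receptor chains did not pass the test: Lifr, the ligand-specific chain, lay close to the signal threshold in both groups (5.65 to 6.18, median 5.83 against 5.66 to 5.96, median 5.81) and differed by 0.02 (95% interval -0.13 to 0.18), and Il6st, the shared chain gp130, differed by -0.62 (-1.33 to 0.09). Stat3, the transcription factor they activate, differed by 0.33 (-0.23 to 0.89) and was not called. Among 22 measured genes of a LIF and STAT3 response list, 7 were higher and 1 lower, against 20.3% and 18.7% of all genes, with a median difference of 0.16; the counts were the same without the 4 arrays.

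Socs3, which shuts off the receptor, ran from 7.29 to 8.25 (median 8.19) under LIF and from 6.60 to 7.28 (median 7.10) under NGAL. The lowest LIF array, day 7 replicate 2, was just above the highest NGAL array, and the difference of 1.02 (SE 0.16) was called (adjusted p = 3e-05, limma). Bcl3, an IκB-family coregulator, was at 7.72 to 8.96 (median 8.49) against 6.51 to 7.59 (median 7.14), also without overlap, and differed by 1.30 (SE 0.19). Il1r2, the decoy interleukin-1 receptor, was at 6.67 to 8.89 (median 7.98) against 5.77 to 6.90 (median 6.57) and differed by 1.47 (SE 0.20); LIF day 7 replicate 2, at 6.67, fell below the highest NGAL array. Irf1, a transcription factor of interferon and STAT signalling, ran from 8.24 to 8.99 (median 8.5) under LIF and 7.54 to 8.26 (median 7.96) under NGAL, with the lowest LIF array just under the highest NGAL array, and differed by 0.63 (SE 0.10). Myc differed by 0.89 (SE 0.19). The member that went the other way was Cebpd, a C/EBP transcription factor that STAT3 and glucocorticoids induce, at 6.34 to 8.90 (median 7.48) under LIF and 8.46 to 10.34 (median 8.83) under NGAL (-1.52, SE 0.31).

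A STAT dimer binds palindromes of the form TTCNNNGAA. The letters were searched on both strands in the 300 bases that RefSeq's GRCr8 promoter table gives around each annotated start, and the table held promoters of 9474 of the 11383 measured genes. They occurred in 8.68% of all 27457 promoters, in 6.52% of those of measured genes, in 6.35% of genes called higher under LIF and in 6.37% of those called lower. Of 17 promoters of the response list, 4 held them (Cish, Icam1, Irf1 and Socs1). The Irf1 promoter is shown because it joined a match with a called difference; it lies at chr10:38417685-38417984 on the plus strand, and the match, in capitals, begins 142 bases before the start.

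Irf1 promoter: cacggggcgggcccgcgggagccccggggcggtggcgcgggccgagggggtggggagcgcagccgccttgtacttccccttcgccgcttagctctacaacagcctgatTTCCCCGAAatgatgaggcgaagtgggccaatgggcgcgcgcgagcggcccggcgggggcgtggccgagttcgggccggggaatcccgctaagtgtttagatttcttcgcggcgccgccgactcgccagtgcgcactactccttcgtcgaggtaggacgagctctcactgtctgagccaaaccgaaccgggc

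Other cytokine genes were divided. Of 16 measured acute-phase and secreted cytokine targets, 2 were higher and 5 lower (12.5% and 31.25%, against 20.3% and 18.7% of all genes). Without the 4 arrays the counts were 1 and 7. The count of lower genes was 3 without LIF day 4 replicate 1 or without replicate 1 of either group on day 7. It was 9 without NGAL day 7 replicate 2. A2m, the protease inhibitor alpha-2-macroglobulin and the classical acute-phase protein of the rat, ran from 11.09 to 12.35 (median 12.02) under LIF and 9.54 to 11.18 (median 10.26) under NGAL and differed by 1.60 (SE 0.22). The other higher member, Serping1 (0.44), the C1 inhibitor, lost its call without LIF day 7 replicate 2 or NGAL day 7 replicate 2 (adjusted p up to 0.0527) and came to 0.14 without all 4. The chemokine Cxcl1 (-1.44, with LIF arrays at 5.24 to 6.08, median 5.90 and NGAL arrays at 5.99 to 9.67, median 6.99), the lipopolysaccharide-binding protein Lbp (-0.97, but -0.16 with levels floored at the threshold) and the complement protease C1s (-1.36, and -2.19 without the 4 arrays) were lower under LIF; C1s lost its call with the replicate number as a block (adjusted p = 0.0576). C1r (-0.86) and the protease inhibitor Timp1 (-0.59) were lower too, but C1r lost its call when any of 6 single arrays was left out (adjusted p up to 0.106). Timp1 lost it without LIF day 4 replicate 1, LIF day 7 replicate 1 or NGAL day 7 replicate 1 (adjusted p up to 0.0655). Of 14 interferon response genes 2 were higher and 5 lower (14.3% and 35.7%). Without the 4 arrays 9 were lower, and 8 without NGAL day 7 replicate 2. Igtp, an interferon-induced GTPase, was at 6.97 to 8.09 (median 7.15) against 5.85 to 6.43 (median 6.26), without overlap (1.17, SE 0.12), and Bst2, the antiviral protein tetherin, differed by 1.44 (SE 0.28). The membrane proteins Ifitm1 (-1.48) and Ifitm3 (-1.60), the class I light chain B2m (-1.03), Irf7 (-0.46) and Cxcl10 (-0.90) were lower under LIF, Cxcl10 losing its call without LIF day 4 replicate 1, LIF day 7 replicate 1 or NGAL day 7 replicate 1 (adjusted p up to 0.0728).

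Among transcripts tied to NGAL itself, neither Lcn2 nor the described receptors were called. Lcn2, the gene for NGAL, lay below the threshold in 7 of 8 arrays of each group; NGAL day 7 replicate 1 reached 7.73 and LIF day 7 replicate 1 6.0. Its difference of -0.10 (95% interval -0.52 to 0.31) was not called, turned to 0.19 without that array, and came to -0.37 (adjusted p = 0.0448, limma) without the 4 arrays. Slc22a17, described as an NGAL receptor, differed by 0.04 (-0.14 to 0.22). Lrp2, the endocytic receptor megalin, ran from 7.25 to 9.73 (median 7.86) under LIF and 5.8 to 9.05 (median 7.31) under NGAL; its difference of 0.78 missed the threshold (adjusted p = 0.0563) and passed it without the 4 arrays (0.75, adjusted p = 0.0469). Of 15 measured iron-handling genes, 2 were higher and 3 lower, shares of 13.3% and 20% that lie near those of all genes. Slc40a1, the iron exporter ferroportin, was at 6.68 to 8.20 (median 7.10) against 7.55 to 9.94 (median 8.36), a difference of -1.19 (SE 0.22), and Hmox1, the heme-degrading oxygenase, differed by -0.98 (SE 0.21) and the iron-responsive aconitase Aco1 by -0.39 (SE 0.08). The transferrin receptor Tfrc was higher by 0.58 (SE 0.19), a call lost without LIF day 4 replicate 1 or without replicate 1 of NGAL day 3, 4 or 7 (adjusted p up to 0.071), and the metal importer Slc39a14 was higher by 0.33 (SE 0.07), or by 0.15 and not called with the mean of its probe sets.

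Nephron progenitor genes stood higher under LIF. Of 16 measured members of this list 7 were higher and 1 lower (43.8% and 6.25%, against 20.3% and 18.7% of all genes). Their median difference was 0.45. Without the 4 arrays the counts were 8 and 1, and with single arrays left out 5 to 9 were higher. No probe set was matched here to Six2 or Cited1, which define these cells. Eya2, a transcriptional coactivator of the Eyes absent family, ran from 7.82 to 10.57 (median 9.83) under LIF and from 6.13 to 8.53 (median 7.10) under NGAL. Among the LIF arrays, day 7 replicate 2 was lowest and the only one to reach into the NGAL range, and the difference of 2.50 (SE 0.29) was 5.64-fold. Its relative Eya1 was at 10.74 to 11.86 (median 11.69) against 8.29 to 11.25 (median 10.61), a difference of 1.16 (SE 0.26), with NGAL day 7 replicate 1 lowest. Sall1, a zinc-finger regulator needed for kidney formation, differed by 1.01 (SE 0.24), Hoxa11, which patterns the metanephros, by 0.62 (SE 0.11), and the homeobox gene Meox1 by 0.78 (SE 0.24), a call lost without day 5 and in a fit of the 16 arrays alone. Wt1, required for mesenchyme survival, differed by 0.35 and was not called (adjusted p = 0.15), though it was without the 4 arrays (0.56, adjusted p = 0.0403). Itga8, the integrin chain through which mesenchyme meets the ureteric bud, was the member lower under LIF (-0.95, SE 0.18; -2.20 on day 3, -0.77 and -0.73 on days 4 and 5, -0.08 on day 7), and it lost its call without day 3. Eya2 was at 7.09 in fresh mesenchyme and 7.99 in uninduced cultures of day 2, levels within the NGAL range, and 7 of 8 LIF arrays lay above the highest of these values.

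Genes of early nephron induction mostly did not separate the inducers. Of 14 measured, 1 was higher and 1 lower (7.14% each, against 20.3% and 18.7% of all genes). Without the 4 arrays 4 were higher and 4 lower. Fgf8, a growth factor of the renal vesicle, ran from 7.15 to 9.05 (median 8.37) under LIF and 5.51 to 7.41 (median 7.06) under NGAL (1.53, SE 0.27); NGAL day 3 replicate 1 and day 7 replicate 1 were below the threshold. Sfrp2, a secreted Wnt binder, was lower at 5.91 to 8.87 (median 7.00) against 8.0 to 9.99 (median 8.72), a difference of -1.68 (SE 0.33). The markers of induced mesenchyme gave intervals that include 0: Pax8 0.35 (-0.11 to 0.80), Wnt4 -0.23 (-0.80 to 0.34), Lhx1 -0.14 (-0.55 to 0.28) and the Notch ligand Jag1 0.30 (-0.08 to 0.68). Lhx1 was called lower without the 4 arrays (-0.56, adjusted p = 0.00911). Pax8 was highest in day 7 replicate 2 of both groups, at 10.91 under LIF and 10.82 under NGAL.

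Among signalling lists around induction, the Wnt and FGF lists had shares of called members near those of all genes, and the Notch list had lower ones. Of 16 Wnt and beta-catenin targets 4 were higher and 3 lower (25% and 18.8%, against 20.3% and 18.7% of all genes). Lgr5, a Wnt target that marks renal vesicle cells and acts as an R-spondin receptor, was at 5.78 to 8.20 (median 7.06) against 4.77 to 7.49 (median 5.11), a difference of 1.57 (SE 0.23), and Znrf3 (0.70, not called without day 4), Apcdd1 (0.89) and Myc were also higher. The Wnt binders Sfrp1 (-1.73) and Sfrp2 were lower, as was Nkd1 (-0.28), whose call was lost without LIF day 3 replicate 1 or LIF day 5 replicate 2 (adjusted p up to 0.0546). Of 15 FGF and MAPK feedback genes, 4 were higher (Dusp5 0.91, Dusp6 0.78, Etv5 0.65 and Myc) and 2 lower (Spry1 -0.62 and Egr1 -0.59), 26.7% and 13.3%, with 7 and 2 without the 4 arrays. Of 19 Notch pathway genes 3 were higher and none lower, 15.8% against 20.3% of all genes. These were Mfng, a glycosyltransferase that modifies Notch (0.78), the transcription factor Rbpj (0.28), whose call was lost with the mean of its probe sets (0.14), and Dll3 (0.18), whose call was lost when any of 7 single arrays was left out. Without the 4 arrays 3 Notch genes were higher and 3 lower.

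A part of the epithelial genes was higher under LIF. Of 23 measured junction and keratin genes 8 were higher and 2 lower (34.8% and 8.7%), as they were without the 4 arrays, and their mean level was 6.73 to 8.15 in LIF arrays and 5.96 to 7.87 in NGAL arrays. Krt18, a keratin of simple epithelia, ran from 8.05 to 9.41 (median 8.80) under LIF and from 5.07 to 8.54 (median 6.87) under NGAL (1.88, SE 0.41), and NGAL day 7 replicate 2 lay within the LIF range. Epcam, an adhesion protein of epithelia, was at 6.70 to 10.24 (median 7.54) against 5.02 to 9.71 (median 6.18); it differed by 1.11 (SE 0.25) on average, by 1.92, 1.37 and 1.11 on days 3, 4 and 5, and by 0.03 on day 7, a variation over days that was not called (limma F-test, adjusted p = 1). The desmosomal cadherin Dsg2 differed by 1.28 (SE 0.22) and its partner Dsc2 by 1.17 (SE 0.18), the latter near the threshold (0.08 with levels floored), and the tight junction protein Cldn6 by 1.01 (SE 0.23). The members lower under LIF were Jup, plakoglobin (-0.47), and the junction adaptor Tjp1 (-0.28), whose call was lost when any of 8 single arrays was left out (adjusted p up to 0.137).

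Cdh1, the epithelial cadherin, lay below the threshold in both groups on days 3 to 5 and on day 7 was at 4.74 and 8.72 under LIF and at 6.75 and 8.15 under NGAL. Its difference of -0.11 (-0.88 to 0.66) was not called. On day 7 the replicates differed more than the inducers for this gene, and the same pair of replicate 2 arrays, which were each other's closest, had the highest mean level of the junction list (8.15 under LIF and 7.87 under NGAL, against 6.96 and 6.87 in replicate 1).

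Segment markers were mostly at low levels. Of 9 measured loop of Henle and distal tubule genes 3 were higher (33.3%) and none lower, against 20.3% and 18.7% of all genes. The differences were small: Sostdc1 0.55, Irx3 0.23, and Cldn19 0.20, whose call was lost when any of 8 single arrays was left out. Irx3 was not called without the 4 arrays (0.21), and Sostdc1 lost its call without day 7 (0.23). Of 17 proximal tubule genes 1 was higher and 3 lower (5.88% and 17.65%). Mme, the peptidase neprilysin, which podocytes and stroma also make, ran from 5.37 to 9.06 (median 7.13) under LIF and 9.30 to 11.06 (median 10.36) under NGAL, without overlap, and differed by -3.15 (SE 0.45). Gatm, an enzyme of creatine synthesis that muscle cells share, differed by -1.90 (SE 0.33), and the aminopeptidase Anpep by -1.04 (SE 0.19). The amino acid transporter subunit Slc7a7, which leukocytes also make, was higher by 1.05 (SE 0.27), and by 1.59 without the 4 arrays. Of 13 podocyte and glomerulus genes 1 was higher and 6 lower (7.69% and 46.15%), and 3 and 7 without the 4 arrays. Synpo, an actin-binding protein of foot processes and smooth muscle, was at 6.75 to 8.96 (median 7.80) against 8.66 to 10.19 (median 9.21), a difference of -1.45 (SE 0.26), Ptpro, a receptor phosphatase, differed by -1.11 (SE 0.26), and Robo2, a guidance receptor also made by progenitors, was higher by 1.27 (SE 0.22).

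**Figure D3:**
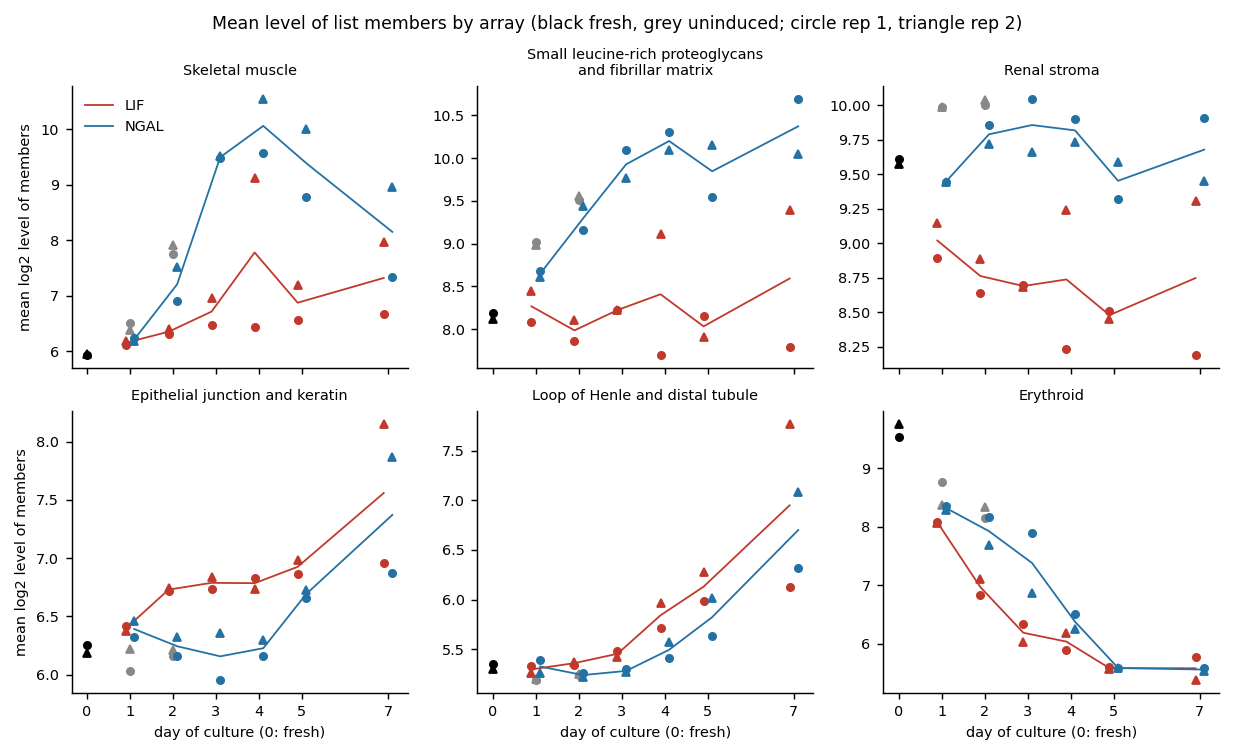
Mean log2 level of the measured members of 6 gene lists (y axis) by day of culture (x axis; 0 is fresh tissue) for each array: LIF red, NGAL blue, uninduced grey, fresh black; circles replicate 1, triangles replicate 2, lines the mean of 2. The matrix list does not overlap between inducers on days 3 to 7, LIF day 4 replicate 2 is the highest LIF array of the muscle panel at 9.13, and the epithelial list is highest in day 7 replicate 2 of both groups (8.15 and 7.87).

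Matrix and stromal genes were lower under LIF. In these bulk samples fewer cells of a type and less RNA per cell cannot be told apart. Of 24 measured genes of fibrillar matrix and small leucine-rich proteoglycans 21 were lower and none higher, against 18.7% and 20.3% of all genes; the median difference was -1.59, all 24 differences were negative, and 22 were called without the 4 arrays. Their mean level was 7.70 to 9.40 in LIF arrays and 9.54 to 10.70 in NGAL arrays, without overlap. Col1a1, the main chain of type I collagen, ran from 6.84 to 10.49 (median 7.92) under LIF and from 10.68 to 12.04 (median 11.68) under NGAL. Even the highest LIF arrays, day 7 and day 4 replicate 2, lay below the lowest NGAL array, and the difference of -3.23 (SE 0.47) was 9.37-fold (adjusted p = 1.49e-05, limma); without the 4 arrays it was -4.28. Col1a2 (-2.15, SE 0.24), Col3a1 (-2.01, SE 0.28) and the type VI chain Col6a3 (-3.24, SE 0.40) also separated without overlap. Aspn, the proteoglycan asporin, was below the threshold in all 8 LIF arrays (3.77 to 5.44, median 3.95) and above it in all NGAL arrays (7.16 to 9.72, median 8.31); its fitted difference was -4.03, and -2.53 with levels floored. The microfibril protein Fbn1 (-1.82, SE 0.20) and the crosslinking enzyme Loxl1 (-1.52, SE 0.19) did not overlap either.

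Of 24 renal stroma genes, 18 were lower and 1 higher (75% and 4.17%), with a median of -0.98. Foxd1, a listed marker of these cells, was not among those measured. The list also shares collagen genes such as Col1a2 with the matrix list above, so the counts of these lists overlap in part. Foxp2, a transcription factor of the stroma, was at 9.03 in fresh mesenchyme, 8.74 in uninduced day 2 cultures, 4.20 to 5.98 (median 4.56) under LIF and 5.58 to 8.99 (median 7.34) under NGAL. Thus 6 of 8 LIF arrays were below the threshold, and the difference of -2.46 (SE 0.29) became -1.50 with levels floored. The intermediate filament Vim differed by -0.68 (SE 0.11). The member higher under LIF was Crabp2, a retinoic acid binding protein (0.83, SE 0.14). Of 24 basement membrane and integrin genes, 15 were lower and 1 higher (62.5% and 4.17%), and 18 and 1 without the 4 arrays. Nid1, the laminin-binding protein nidogen, was at 8.70 to 11.38 (median 9.97) against 11.46 to 12.27 (median 12.10), a difference of -2.03 (SE 0.30), Col4a1, a chain of type IV collagen, at 9.74 to 10.54 (median 9.85) against 10.18 to 11.24 (median 10.84), a difference of -0.87 (SE 0.13), and the common integrin beta chain Itgb1 differed by -0.77 (SE 0.10). Lama5, the laminin chain of mature epithelial basement membranes, was the member higher under LIF (0.48, SE 0.15), a call lost in a fit of the 16 arrays alone, with LIF day 7 replicate 2 highest at 8.75.

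TGF-beta and contractile targets were lower as well, 15 of 21 (71.4%) with none higher and a median of -1.05. Ccn2, the matricellular growth factor that TGF-beta and YAP induce, ran from 5.24 to 8.59 (median 5.89) under LIF and from 7.79 to 12.52 (median 11.67) under NGAL. NGAL day 4 and day 5 replicate 1 were low at 8.72 and 7.79, and only the latter fell within the LIF range; the difference of -4.59 (SE 0.66), 24.1-fold, was the largest fall of any called gene. Its relative Ccn1 was at 5.34 to 6.28 (median 5.90) against 6.38 to 8.57 (median 7.45), without overlap (-1.63, SE 0.22). Inhba, the activin A subunit, differed by -2.85 (SE 0.41), Tagln, the smooth muscle protein transgelin, by -2.62 (SE 0.39), and Pmepa1, a feedback inhibitor of TGF-beta signalling, by -1.07 (SE 0.16), without overlap for Pmepa1.

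**Figure D4:**
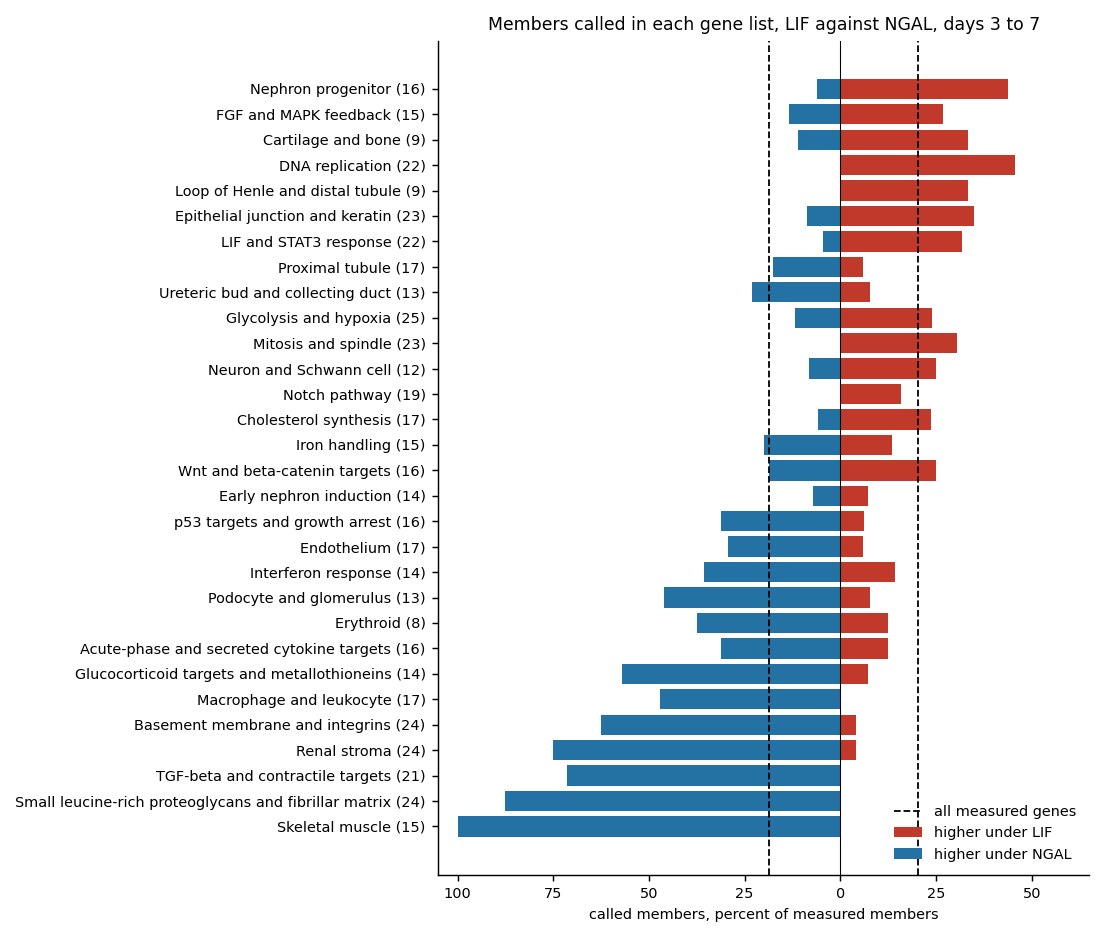
Percent of each list's measured members (number in brackets) called higher under LIF (red, to the right) or lower (blue, to the left) over days 3 to 7; dashed lines mark the 20.3% and 18.7% of all measured genes, and lists are ordered by their median difference. Skeletal muscle (15 of 15 lower) and fibrillar matrix (21 of 24 lower) lie at the bottom, nephron progenitor genes (7 of 16 higher) at the top.

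Skeletal muscle genes, which the labelled tissue is not known for, were lower under LIF. The list was chosen with earlier results of these data known, so its counts are a description. Of its 22 members 19 were on the array and 15 passed the signal filter. As the filter takes the highest group mean, a member high in a single group also counted as measured. All 15 measured members of a skeletal muscle list were lower under LIF, with and without the 4 arrays; the median difference was -1.89, and by day it was -2.66, -2.04, -2.20 and -0.77. Their mean level was 5.94 in fresh mesenchyme, 7.82 in uninduced cultures of day 2, 6.43 to 9.13 in LIF arrays and 7.34 to 10.56 in NGAL arrays, and their summed intensity 3501 to 12650 under LIF and 5010 to 36840 under NGAL. Acta1, skeletal muscle actin, ran from 4.51 to 10.95 (median 6.04) under LIF and 9.09 to 12.74 (median 11.43) under NGAL. LIF day 4 and day 7 replicate 2, 2 of the arrays that stood apart, were high at 10.95 and 10.04, and NGAL day 7 replicate 1 was low at 9.09; the difference was -4.46 (SE 0.84) and -5.79 without the 4 arrays. Myl1 and Myl11, light chains of fast muscle myosin, differed by -3.97 (SE 0.78) and -3.75 (SE 0.67), the embryonic heavy chain Myh3 by -3.63 (SE 0.55) and fast troponin C, Tnnc2, by -3.45 (SE 0.52). Myl11 was in the list only under an older symbol and Tnnc2 was not in it, so neither is counted there.

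The regulators of the muscle programme were lower too. Myog, the transcription factor myogenin, was at 6.78 to 10.45 (median 7.32) against 7.68 to 12.34 (median 11.21), a difference of -2.86 (SE 0.44), and Myod1, which starts the programme, at 4.03 to 8.93 (median 4.77) against 4.63 to 10.15 (median 8.71), a difference of -2.90 (SE 0.56), and -2.35 with levels floored. Myod1 was below the threshold in 6 LIF arrays and in 1 NGAL array, day 7 replicate 1. The slow troponin I gene Tnni1 differed by -1.60 (SE 0.23), the atrial and embryonic light chain Myl4 by -2.95 (SE 0.44) and the giant sarcomere protein Ttn by -1.24 (SE 0.14). How far muscle cells contribute to the matrix, contractile and other differences was not tested.

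The CArG box, bound by serum response factor, controls muscle and contractile genes. It was searched on both strands in the same promoter windows and occurred in 1.64% of all promoters, 1.30% of those of measured genes, 1.45% of those of genes lower under LIF and 1.17% of those of genes higher. It was found in 1 of 12 promoters of the muscle list (Acta1) and 1 of 18 of the contractile list (Cnn2). The Acta1 promoter is shown as the member with the larger difference; it lies at chr19:68784145-68784444 (GRCr8, minus strand), and its box, in capitals, begins 94 bases before the start.

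Acta1 promoter: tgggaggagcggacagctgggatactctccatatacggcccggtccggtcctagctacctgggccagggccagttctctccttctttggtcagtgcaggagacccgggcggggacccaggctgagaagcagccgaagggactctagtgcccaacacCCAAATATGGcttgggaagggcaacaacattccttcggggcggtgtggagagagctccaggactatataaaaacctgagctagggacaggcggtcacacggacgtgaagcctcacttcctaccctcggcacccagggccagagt

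Growth genes were in part modestly higher under LIF. Of 22 DNA replication genes 10 were higher and none lower (45.5%, against 20.3% of all genes), with a median of only 0.21, and 11 higher and 1 lower without the 4 arrays; without NGAL day 7 replicate 1, 6 were higher. Cdt1, which loads the replicative helicase, ran from 9.40 to 9.97 (median 9.65) under LIF and 8.67 to 9.53 (median 9.18) under NGAL (0.50, SE 0.07), and Mcm7, a helicase subunit, differed by 0.41 (SE 0.09). Of 23 mitosis genes 7 were higher (30.4%) and none lower. Among them were the spindle kinase Aurka (0.47, SE 0.09) and the kinetochore protein Cenpf (0.53, SE 0.15). With single arrays left out 5 to 11 mitosis genes were higher, the 11 without NGAL day 7 replicate 2. Of 16 p53 and growth arrest genes 5 were lower and 1 higher (31.25% and 6.25%, against 18.7% and 20.3% of all genes). Rprm, a cell-cycle inhibitor, was at 5.19 to 8.93 (median 6.15) against 7.90 to 11.26 (median 9.13), a difference of -2.38 (SE 0.36), with NGAL day 7 replicate 1 highest, and the cyclin-dependent kinase inhibitor Cdkn1c differed by -0.98 (SE 0.18). Fas (-0.90), Phlda3 (-0.46) and Plk2 (-0.84) were lower too, and Sesn2 was the member higher (0.23), a call lost when any of 13 of the 16 arrays was left out.

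Both media held dexamethasone, yet glucocorticoid targets differed. Of 14 measured targets and metallothioneins 8 were lower and 1 higher (57.1% and 7.14%), and 9 and 2 without the 4 arrays. Errfi1, a feedback inhibitor of EGF receptors, was at 10.36 to 11.19 (median 10.81) against 11.19 to 12.29 (median 11.77), a difference of -0.91 (SE 0.16), Fkbp5, a chaperone of the glucocorticoid receptor, differed by -0.34 (SE 0.07), and Cebpd is given above; the higher member was Mt2A. Of 25 glycolysis and hypoxia genes 6 were higher and 3 lower (24% and 12%, against 20.3% and 18.7% of all genes). Without LIF day 3 replicate 2, 3 were higher. The glycolytic enzyme Eno1 was higher by 0.51 (SE 0.11), whereas the hypoxia-induced genes Ndrg1 (-1.39, SE 0.28) and P4ha1, a collagen prolyl hydroxylase (-0.94, SE 0.14), were lower, with no overlap for P4ha1; the remaining lower gene was hexokinase Hk1 (-0.56, and -0.30, not called, with the mean of its probe sets). Of 17 cholesterol synthesis genes 4 were higher and 1 lower (23.5% and 5.88%, near or below the share of all genes), with 2 higher without the 4 arrays. Hsd17b7 (1.27) and Fdps (0.44) were higher, and Mvd (0.27), Dhcr7 (0.34) and the lower gene Nsdhl (-0.32) each lost their call when any of 8 or 9 single arrays was left out.

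Markers of other cell types that the dissected tissue could hold were compared too, against the 20.3% higher and 18.7% lower of all genes. Of 17 macrophage and leukocyte genes 8 were lower (47.1%) and none higher, 10 and 1 without the 4 arrays, and between 3 and 11 were lower when single arrays were left out; the count was 3 without NGAL day 3 replicate 1 or NGAL day 7 replicate 1, and 5 without NGAL day 4 replicate 1. Their summed intensity was 1042 to 1401 under LIF and 1355 to 3428 under NGAL, and the defining genes Ptprc and Csf1r did not pass the signal threshold, while the complement genes C1qa, C1qb and C1qc did. Lyz2, lysozyme, was at 6.87 to 7.37 (median 7.19) against 7.5 to 10.57 (median 8.18), without overlap (-1.17, SE 0.22), as was the mannose receptor Mrc1 (-1.33, SE 0.28; -0.87 floored), and the endotoxin coreceptor Cd14 differed by -0.75 (SE 0.11). Of 17 endothelial genes 5 were lower and 1 higher (29.4% and 5.88%), with summed intensities of 1407 to 2119 under LIF and 1809 to 3276 under NGAL. Emcn, endomucin, was at 5.42 to 7.90 (median 6.61) against 7.55 to 10.09 (median 8.33), a difference of -1.79 (SE 0.31), and Eng, endoglin, did not overlap (-1.02, SE 0.19). Ramp2 (-0.64), Sox18 (-0.37, not called without day 3 or day 5) and Cldn5 (-0.95) were lower too, Cldn5 losing its call when any of 8 single arrays was left out, while Sox17 was higher (1.43, SE 0.19). Their part in the other differences was not tested.

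Of 8 erythroid genes 3 were lower (37.5%) and 1, Klf1, was higher (0.34). Hbe1, an embryonic globin, was at 13.67 in fresh tissue and on day 3 at 8.56 and 7.63 under LIF and 12.06 and 10.39 under NGAL, and by day 5 all arrays were below the threshold. Its average difference was -1.42 (SE 0.23); Hbz (-1.0) and Ahsp (-0.41) were lower too and lost their calls without day 3. Summed erythroid intensity was 391 to 919 under LIF and 438 to 6467 under NGAL. Of 13 ureteric bud genes 1 was higher (Etv5, above) and 3 lower, 7.69% and 23.1%, but 5 were higher without LIF day 7 replicate 1. The lower members were Lgals3 (-1.39, and -2.11 without the 4 arrays), Spry1 (above) and Gata3 (-0.62), whose call was lost when any of 7 single arrays was left out. The summed intensity of this list was 2109 to 3801 under LIF and 2596 to 6027 under NGAL. Of 12 neuron and Schwann cell genes 3 were higher (25%) and 1, Dcx, lower (-0.78; 8.33%). The RNA-binding protein Elavl4 ran from 8.35 to 10.49 (median 10.02) against 5.53 to 8.87 (median 7.81), a difference of 2.22 (SE 0.28), and the neurotrophin receptor Ngfr differed by 1.06 (SE 0.25), while Tubb3 (0.47) lost its call when any of 9 single arrays was left out. Of 9 cartilage and bone genes 3 were higher, 33.3% (Col9a1 1.84, Sox6 0.95, Col9a2 0.38) and 1, Col11a1, lower (-0.85), and their summed intensity was 4461 to 11200 under LIF and 2369 to 9404 under NGAL. That of the neuron list was 1657 to 3586 and 1287 to 2206. The part of these lists in other differences was not tested.

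Whether the difference itself varied between days 3, 4, 5 and 7 was tested for each gene. The limma F-test called 0 genes (adjusted p = 1 at the smallest), 209 had an unadjusted p under 0.05, and 40 were called without the 4 arrays, so the day-by-day differences above are descriptions. The smallest unadjusted p-values belonged to Sox17, Ccl21, Lhx2 and Hbe1, each with an adjusted p of 1. Sox17, a SOX transcription factor, was at 7.69 and 7.04 under LIF on day 4 and at 4.54 and 4.51 on day 7, with differences of 0.31, 2.58, 2.38 and 0.46 on days 3, 4, 5 and 7. Lhx2, a LIM homeobox gene, was below the threshold in all 8 NGAL arrays and in all uninduced and fresh means, and above it in 4 of 8 LIF arrays, both of day 3 and replicate 1 of days 4 and 5, with no overlap; its difference of 1.65 became 0.26 with levels floored. Ccl21, a chemokine, differed by 0.22 on average, and its call was lost when any of 8 single arrays was left out and without the 4 arrays.

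Most genes called on days 1 and 2, where 8 other arrays were compared in the same fit, were called in the same direction on days 3 to 7. Early calls numbered 310 higher and 279 lower (2.72% and 2.45%, 5.17% in all). Of the 310, 244 (78.7%) were also higher later, against 20.3% of all measured genes, and they make up 10.5% of the genes higher later. Of the 279, 198 (71%) were also lower later, against 18.7% of all measured genes, and they make up 9.31% of those lower later. In opposite directions 3 genes were called. Both comparisons used the same estimate of each gene's spread, so their calls are not independent. Draxin already differed by 2.64, Ccn2 by -3.93, Eya2 by 2.02 and Socs3 by 1.60 early. The muscle list had an early median of -0.39.

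The test of the later difference against the early one called 39 genes (0.343%), 24 upward (0.211%) and 15 downward (0.132%). Sox17 went from -0.55 early to 1.43 later (1.98, SE 0.33, adjusted p = 0.00738), Lhx2 from 0.18 to 1.65 and Mrln, a muscle micropeptide gene, from -0.97 to 1.31. Nptx1 (-1.67 to -0.25), Cdc42ep3 (-1.04 to 0.42) and Sorcs3 (-1.19 to 0.09) were lower under LIF early and less so, or not, later. In the other direction, Rasd1, a dexamethasone-induced Ras protein, went from 1.0 to -1.16 (-2.17, SE 0.34, adjusted p = 0.00738), the imprinted noncoding RNA Meg3 from -0.42 to -2.49, Klf5 from 1.01 to -0.74, Nup62cl from 1.44 to -0.23, Synpo2l, a sarcomere protein, from 0.12 to -1.62, and Lmna, the nuclear lamin A, from 0.28 to -1.28. These 12 stayed called without the 4 arrays, where 1001 genes were called. The count was 4 to 285 when single arrays were left out and fell to 4 without LIF day 2 replicate 1, 5 without LIF day 1 replicate 1 and 8 without NGAL day 1 replicate 1.

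**Figure D5:**
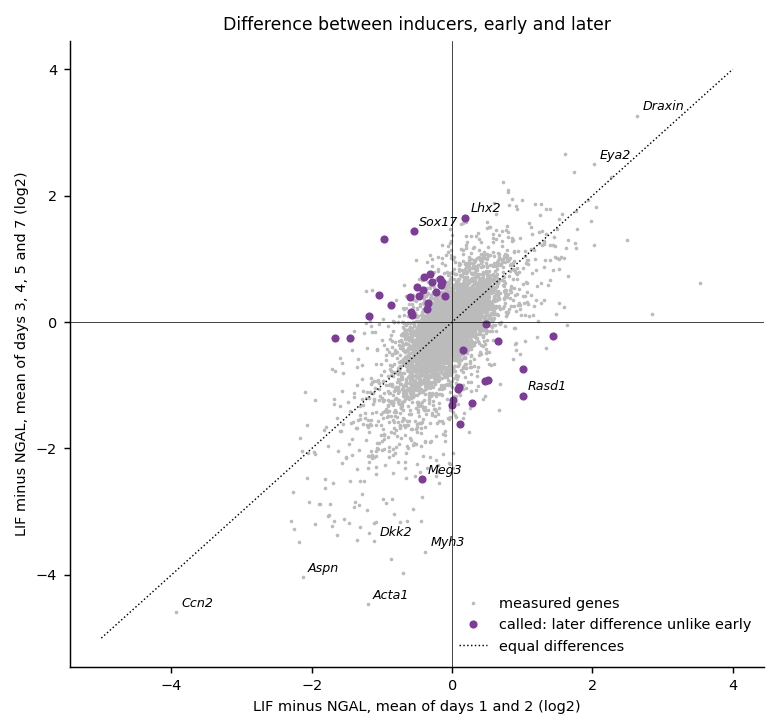
Difference between LIF and NGAL averaged over days 1 and 2 (x axis) and over days 3, 4, 5 and 7 (y axis), both log2, for every measured gene (grey); purple points are the 39 genes whose later difference was called unlike the early one, and the dotted line marks equal differences. Draxin and Ccn2 lie far from 0 on both axes, and Sox17 (-0.55 early, 1.43 later) and Rasd1 (1.0 early, -1.16 later) have opposite signs on them.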

How the data were processed

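RNA of 42 cultures or tissues was hybridised to Affymetrix Rat Genome 230 2.0 arrays. The authors normalised the arrays with RMA, per the submitters' processing notes, and the deposited intensity values are on a linear scale (7.6 to 17972); RMA fits probe effects over all arrays together and evens their distributions, so a shift shared by most genes would not show. Log2 was taken here. Of 31099 probe sets, 20828 were assigned to 1 gene through GEO's platform annotation and RefSeq's GRCr8 gene table, 436 to several and 9835 to none, and where several probe sets served 1 of the 14210 genes, the brightest on average over all arrays stood for it. Group means of 21 groups were fitted with limma 3.58.1 (R 4.3.3, empirical Bayes with a variance trend, 21 residual degrees of freedom), and p-values were adjusted over the 11383 measured genes. The fit was tested on simulated data. The number of arrays limits the precision; nothing in the sources used here says more about how duplicates arose, so p-values measure the spread between them. The genes and gene lists were chosen with earlier results of these data known. Named genes are the 14 with the largest called difference in each direction among those with the same sign on all 4 days, up to 5 called members of a list in a direction with the smallest adjusted p, where at least 2 were called, the 4 with the smallest p by the test over days, the 6 largest in each direction for the later against the early difference, and anchor genes of both pathways and of nephron formation; Dlk1, Itga8, Fgf8, Crabp2, Lama5, Myod1, Slc7a7, Robo2, Nsdhl, Sesn2, Klf1, Dcx and Col11a1 were named after their values were seen. Levels floored at the signal threshold replace smaller values by it. Leaving out the 4 arrays that stood apart was an alternative chosen after seeing the data.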

Additional observations from a re-analysis of the deposited data

Results flagged for a closer look

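In 37 of 338 groups of 8 arrays checked (10.9%), the highest or lowest array lay apart from the other 7. The gap exceeded Dixon's 95% limit for the share of the whole range. That limit, passed about 1 time in 20, takes the 8 arrays as draws from 1 population, whereas each group spans 4 days of culture. It gives no chance rate for these groups, so no conclusion is drawn from the 10.9%. In NGAL day 7 replicate 1, muscle genes were low within the NGAL group (Acta1 9.09, Myl1 8.09, Myh3 7.79, Myod1 4.63), as was Itga8 (6.64). In the same array Cxcl1 (9.67), Lyz2 (10.57), Lcn2 (7.73), Rprm (11.26) and Rasd1 (9.46) were high. The gap of Lcn2 took up 0.83 of the range, the largest of the 37.

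LIF day 7 replicate 2 was highest in its group for the epithelial and tubule genes Epcam (10.24), Cdh1 (8.72) and Lrp2 (9.73), and for Col4a1 (10.54) and Cldn5 (8.74), and lowest for Eya2 (7.82) and Crabp2 (10.76). LIF day 4 replicate 2 was highest for Myog (10.45), Ttn (6.35), Meg3 (8.29) and Ramp2 (7.64). NGAL day 5 replicate 1, its closest array, was highest in the NGAL group for Draxin (6.74) and Fbxo2 (7.33) and lowest for Nid1 (11.46) and Itgb1 (11.82).

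The other arrays flagged among the LIF cultures were day 7 replicate 1, high for Fbxo2 (9.55) and Dll3 (6.94), day 3 replicate 1, high for Lifr (6.18), and day 3 replicate 2, high for Slc22a17 (10.49). Among the NGAL cultures, day 3 replicate 1 was low for Bst2 (6.51), Ngfr (6.98) and Fdps (10.62) and high for Ahsp (6.62). Day 3 replicate 2 was high for Hk1 (8.65) and Tubb3 (7.58), day 4 replicate 1 low for Lhx2 (3.77) and day 4 replicate 2 low for Slc39a14 (7.95).

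For 12 named genes the difference between the inducers on days 3 to 7 departed from that on days 1 and 2 by the test of the change itself in the limma fit. The change was upward for Mrln (2.28), Sox17 (1.98), Cdc42ep3 (1.47), Lhx2 (1.47), Nptx1 (1.42) and Sorcs3 (1.28). It was downward for Rasd1 (-2.17), Meg3 (-2.06), Klf5 (-1.75), Synpo2l (-1.74), Nup62cl (-1.67) and Lmna (-1.56). Rasd1 was also high in NGAL day 7 replicate 1, and Meg3 in LIF day 4 replicate 2. The size for Lhx2 is uncertain, since it lay below the signal threshold in all NGAL arrays of days 3 to 7.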

How the results depend on the processing

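The count for days 3 to 7 stayed within 1.5 times the main 4444 under each alternative (3404 to 5219, and 3650 to 4828 with single arrays left out) except a 2-fold minimum, which by construction left 616. Counts for single days rest on 4 arrays and were less stable. With single arrays left out, 6 to 1512 genes were called on day 3, 0 to 964 on day 4, 0 to 395 on day 5, 3 to 1772 on day 7, 0 to 9 by the test over days, and 4 to 285 for the later against the early difference. On day 3, 519 genes passed a 2-fold minimum, 45 were called in a fit of the 16 arrays alone and 532 in one of all LIF and NGAL arrays. On day 4 these counts were 259, 0 and 31, with 1213 under array weights and 1401 with the 3'/5' signal as a covariate. On day 5 the fit of 16 arrays gave 0, that of all LIF and NGAL arrays 8, array weights 1157 and the covariate 435. On day 7 a 2-fold minimum left 236, the 2 smaller fits gave 0 and 21, array weights 0, a further quantile normalisation 701 and the covariate 842. Without the 4 arrays that stood apart the counts were 1431 on day 4, 658 on day 5, 2185 on day 7, 40 by the test over days and 1001 for the later against the early difference. That last count was also 25 with the mean of probe sets, 18 over every probe set, 23 with a 2-fold minimum, 135 with array weights, 8 in the fit of LIF and NGAL arrays and 80 with the covariate. The cause of these shifts was not tested, beyond the fewer arrays in the smaller fits.

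Same-numbered arrays were not taken as pairs: the labels name no shared batch, and their deviations correlated at 0.49, -0.18, 0.21 and 0.01 on days 3, 4, 5 and 7. On day 7, however, the spike's 3'/5' signal was 2.30, 1.97 and 2.20 in replicate 2 of LIF, NGAL and ANX and 1.19, 1.32 and 1.17 in replicate 1. With the replicate number as a block, 4100 genes were called over days 3 to 7, 438 on day 3, 70 on day 4, 20 on day 5, 1 on day 7 and 2 for the later against the early difference; 149 of the 157 called genes named above kept their call under it.

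Of these 157 genes, 140 were called with each single array left out, and 127 under every alternative apart from the 2-fold minimum. Most of the 157 were named for a large or well-supported difference in these same arrays. These counts, and the one under the block, therefore follow in part from that choice and do not describe called genes in general. Without the 4 arrays that stood apart, C1r came to -1.36, Timp1 to -0.91, Cxcl10 to -1.44 and Tjp1 to -0.42. Differences near 0 changed sign, and none of them was called in the main comparison. For Lhx1 and Lcn2 the results without the 4 arrays are given above. With single arrays left out Lifr ran from -0.0435 to 0.0863, Lhx1 from -0.316 to 0.0426 and Cdh1 from -0.608 to 0.387. Lcn2 ran from -0.396 to 0.188 and Slc22a17 from -0.0188 to 0.0999. Lifr came to -0.0056 without day 4, Cdh1 to 0.0145 with the mean of probe sets and 0.0929 without day 7, Lcn2 to 0.0844 without day 7 and Slc22a17 to -0.0551 without day 3. Signals under the threshold of log2 5.79 limit the size of any difference that starts or ends there.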
